A study of Rattus norvegicus with 48 samples.

Results

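Bmal1 (listed as Arntl, ENSRNOG00000014448), Npas2 (ENSRNOG00000013408) and Clock (ENSRNOG00000002175), the activators of the circadian clock, were followed through 2 fat depots of the rat. They were chosen by gene ID, with their difference between the early and late active phase already known, and are 3 of the 23481 genes in the deposited table. The symbols came with that choice, because the table itself pairs no ID with a name. All 3 genes passed the filter on low counts in SAT, in VAT and in the fit of all 8 groups.

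Male adolescent rats were either sedentary or exercised, and belonged to the early active phase (zeitgeber time, hours after lights on, of 13) or the late active phase (zeitgeber time of 23). Subcutaneous (SAT) and visceral adipose tissue (VAT) were taken from 24 rats at postnatal day 61, and the last session lay 24 h back. This gave the groups early sedentary, early exercised, late sedentary and late exercised in each depot, 8 groups of 6 libraries and 48 libraries in all. No strain, genotype, allele or drug is given in the labels, nor is the kind of exercise or the fat pad behind each depot. Early and late rats were different animals, so that handling and processing of a group cannot be told apart from its time of collection.

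BMAL1 is the shared partner of the positive limb of the circadian clock. It pairs with CLOCK or with NPAS2, which are related basic helix-loop-helix PAS proteins, and the pair binds E-box sequences to switch on the Period, Cryptochrome and Rev-erb genes, whose products feed back on the clock. Bmal1 is itself transcribed under ROR activators and REV-ERB repressors, which compete for ROR elements in its promoter, and the clock runs in adipocytes as in most cells of the body.

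The stretch of 250 bases before the start site is shown for each gene, because the genes share a phase pattern and the Bmal1 stretch matches ROR element letters. The sequences are from RefSeq on build GRCr8, plus strand, 5′ to 3′, with matches to the searched motifs in capitals. The counts were made on build rn6, so no coordinate of one build was used with the other. The stretches lie at chr1:176766078-176766327 for Bmal1, at chr9:48959315-48959564 for Npas2 and at chr14:32262500-32262749 for Clock, the first of 2 Clock start sites listed.
Bmal1: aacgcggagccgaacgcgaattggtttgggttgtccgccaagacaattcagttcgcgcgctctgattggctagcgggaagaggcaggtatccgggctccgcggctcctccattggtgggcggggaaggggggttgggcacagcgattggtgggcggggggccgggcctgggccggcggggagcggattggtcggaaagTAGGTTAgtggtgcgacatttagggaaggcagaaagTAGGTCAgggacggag
Npas2: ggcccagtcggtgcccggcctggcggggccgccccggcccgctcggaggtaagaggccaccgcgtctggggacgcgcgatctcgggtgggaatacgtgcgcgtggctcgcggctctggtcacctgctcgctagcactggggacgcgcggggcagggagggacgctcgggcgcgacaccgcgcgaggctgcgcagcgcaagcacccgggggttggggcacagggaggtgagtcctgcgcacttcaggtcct
Clock: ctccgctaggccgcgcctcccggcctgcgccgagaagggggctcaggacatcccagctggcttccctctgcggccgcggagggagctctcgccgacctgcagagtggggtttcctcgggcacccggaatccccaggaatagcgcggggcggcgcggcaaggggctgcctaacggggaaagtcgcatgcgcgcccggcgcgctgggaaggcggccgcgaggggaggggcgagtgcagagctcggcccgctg
The Bmal1 stretch holds the ROR element core TAGGTCA at 16 to 10 bases before the start, and its variant TAGGTTA at 52 to 46 bases before the start, both on the plus strand. Among 33469 rat promoter stretches of the same length, 2.26% hold TAGGTCA and 1.42% hold TAGGTTA on either strand. A total of 14 stretches, or 0.0418%, hold both. The motifs were picked from what is known of clock genes, the ROR cores with Bmal1 in mind, so the matches describe the sequence and test nothing.

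The Npas2 stretch and both Clock stretches hold none of the 6 motifs searched, on both strands. Besides the ROR cores named above, the search took in TGGGTCA as a further ROR core, the E-box CACGTG, the D-box core TTACGTAA and its variant TTATGTAA. These letters occur in 3.44% (TGGGTCA), 5.59% (CACGTG), 0.108% (TTACGTAA) and 0.828% (TTATGTAA) of all stretches. The printed stretches are rich in G and C, at 64.0% for Bmal1, 74.8% for Npas2 and 74.4% for Clock, where the median of all stretches is 51.2%. They hold 23, 33 and 31 CpG dinucleotides, against a median of 5. The stretch of the second Clock start site, not printed, has 28.0% G and C and 0 CpG dinucleotides.

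The estimated counts of a library summed to 13163675 at the lowest and 17890033 at the highest (median 15576425). Levels are given as CPM, the count scaled to the TMM library size over all 48 libraries. In all, 4 libraries were atypical, meaning that their median rank correlation with their depot lay over 5 median absolute deviations below the usual. They were SAT late exercised replicates 4 (0.828) and 6 (0.846), against 0.956 to 0.98 in the other 22 SAT libraries, and VAT early sedentary replicate 5 (0.958) and VAT early exercised replicate 3 (0.95), against 0.976 to 0.984. Values without them are given beside the main results. The cause of their difference was not tested, and neither the tissue nor its cell types could be checked against marker genes, since the IDs are not paired with symbols. Levels are not compared between the genes, because no gene lengths were used.

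Bmal1 was low in every early library and high in every late library of each depot. In SAT of early sedentary rats it ranged from 1.51 to 6.40 CPM with a median of 3.49, and in late sedentary rats from 51.4 to 63.0 CPM with a median of 56.6. In SAT of early exercised rats it ranged from 2.05 to 4.51 CPM with a median of 2.91, and in late exercised rats from 38.6 to 59.2 CPM with a median of 52.5. No late SAT library overlapped an early one, and the lowest of the 12 late libraries stood 6.03-fold above the highest of the 12 early ones. Without the atypical late libraries this gap was 6.62-fold.

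In VAT of early sedentary rats Bmal1 ranged from 1.67 to 6.17 CPM with a median of 2.79, and in late sedentary rats from 46.6 to 52.9 CPM with a median of 48.4. In VAT of early exercised rats it ranged from 1.68 to 5.41 CPM with a median of 2.21, and in late exercised rats from 44.0 to 55.6 CPM with a median of 52.5. The highest early value of each VAT group came from an atypical library, and even so the late libraries began 7.13-fold above them, or 14.3-fold without the atypical ones. Since the tissue was measured in bulk, less RNA per cell and fewer cells of an expressing type cannot be told apart for any of these levels.

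The late level of Bmal1 over the early one was 15.8-fold in sedentary SAT (log2 3.98 ± 0.237 SE) and 15.8-fold in sedentary VAT (log2 3.98 ± 0.254). In exercised rats it was 16.6-fold in SAT (log2 4.05 ± 0.240) and 18.5-fold in VAT (log2 4.21 ± 0.258). These values describe the contrast that chose the genes and carry no test. Without the atypical libraries the VAT values were 4.34 ± 0.122 in sedentary and 4.57 ± 0.125 in exercised rats on the log2 scale, and the value in exercised SAT was 4.08 ± 0.238.

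Npas2, the alternative partner of BMAL1, had the largest phase fold of the 3 genes in each depot and activity group. In SAT of early sedentary rats it ranged from 0.680 to 3.35 CPM with a median of 1.68, and in late sedentary rats from 44.4 to 68.3 CPM with a median of 59.5. In SAT of early exercised rats it ranged from 0.917 to 2.94 CPM with a median of 1.51, and in late exercised rats from 33.3 to 89.0 CPM with a median of 51.2. The late exercised group was the widest, with the atypical replicates 6 and 4 at its bottom (33.3 and 36.8 CPM) and replicate 3 at its top (89.0 CPM).

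Npas2 in VAT of early sedentary rats ranged from 1.85 to 4.17 CPM with a median of 2.04, and in late sedentary rats from 52.0 to 85.2 CPM with a median of 58.1. In VAT of early exercised rats it ranged from 2.09 to 3.30 CPM with a median of 2.75, and in late exercised rats from 58.7 to 108.6 CPM with a median of 84.1. The early and late libraries did not overlap in either depot. The lowest late library stood 9.92-fold above the highest early one in SAT, or 13.2-fold without the atypical libraries, and 12.5-fold above it in VAT with or without them.

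The late level of Npas2 was 30.1-fold the early one in sedentary SAT (log2 4.91 ± 0.323 SE) and 24.7-fold in sedentary VAT (log2 4.63 ± 0.203). In exercised rats it was 33.2-fold in SAT (log2 5.05 ± 0.327) and 30.1-fold in VAT (log2 4.91 ± 0.204). Without the atypical libraries the value in exercised SAT was 5.30 ± 0.292 on the log2 scale, and those in VAT were 4.57 ± 0.216 in sedentary and 4.95 ± 0.218 in exercised rats. The early level rested on few reads, between 11 and 60 counts a library. The lowest count, 11 in SAT early sedentary replicate 1, has an exact 95% Poisson interval of 5.49 to 19.7, which covers counting error only.

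Clock, the main partner of BMAL1, was present in every library and differed far less by phase. In SAT of early sedentary rats it ranged from 66.9 to 88.5 CPM with a median of 79.0, and in late sedentary rats from 104.5 to 163.4 CPM with a median of 140.4. In SAT of early exercised rats it ranged from 45.4 to 78.2 CPM with a median of 71.5, and in late exercised rats from 71.6 to 127.4 CPM with a median of 94.4. The late exercised libraries overlapped the early ones: the atypical replicates 6 (71.6 CPM) and 4 (78.5 CPM) lay below the highest early library, a sedentary one at 88.5 CPM. Only replicate 6 lay below the highest early exercised library, at 78.2 CPM.

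Clock in VAT of early sedentary rats ranged from 60.3 to 74.0 CPM with a median of 64.2, and in late sedentary rats from 127.5 to 148.3 CPM with a median of 132.6. In VAT of early exercised rats it ranged from 59.9 to 70.4 CPM with a median of 64.4, and in late exercised rats from 120.9 to 145.3 CPM with a median of 139.8. No late VAT library overlapped an early one, and the lowest late library stood 1.63-fold above the highest early one.

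The late level of Clock was 1.75-fold the early one in sedentary SAT (log2 0.80 ± 0.140 SE) and 2.04-fold in sedentary VAT (log2 1.03 ± 0.0612). In exercised rats it was 1.39-fold in SAT (log2 0.48 ± 0.140) and 2.09-fold in VAT (log2 1.06 ± 0.0613). The value in exercised SAT was 0.63 ± 0.136 on the log2 scale without the atypical libraries, and the lowest late SAT library then stood 1.03-fold above the highest early one.

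**Figure D1:**
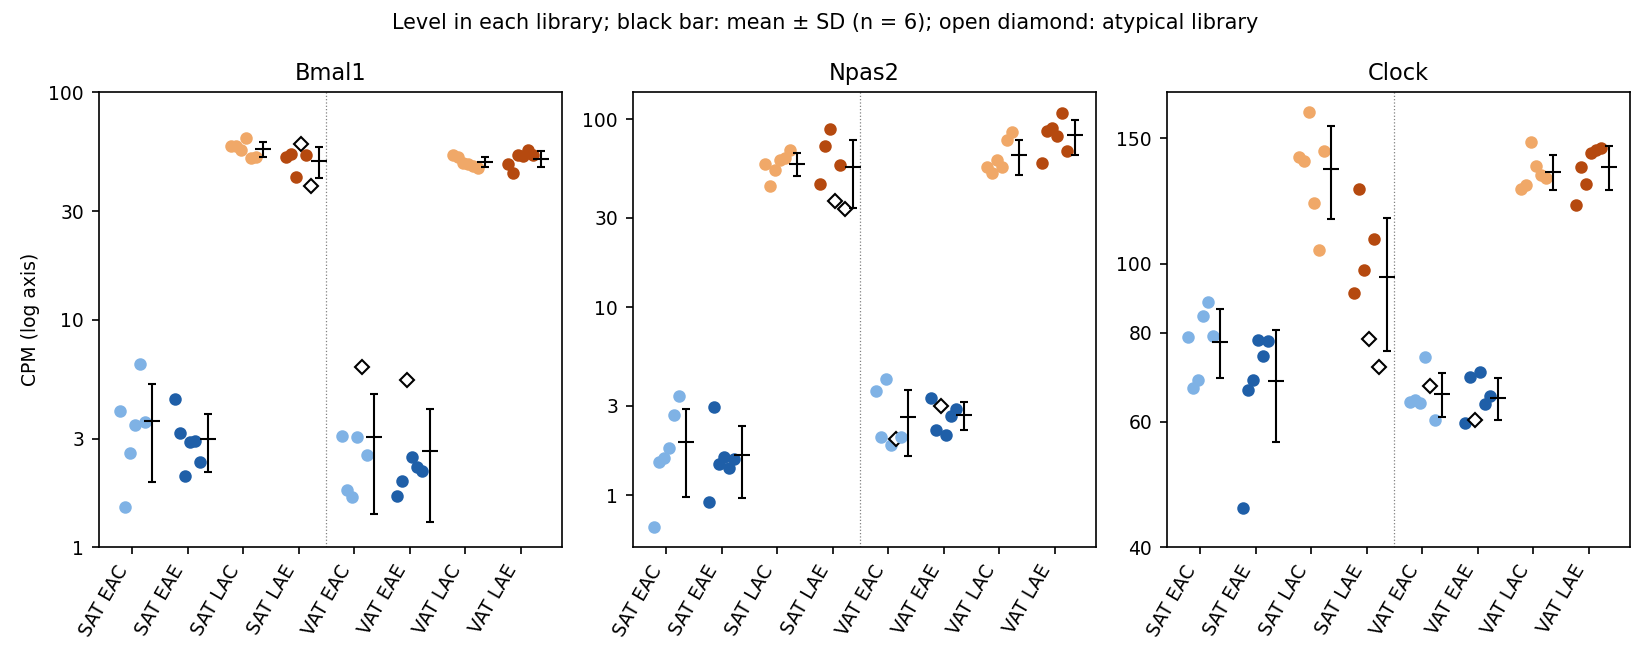
Level of each gene in each library (CPM, log axis, with a range of its own for Clock), by depot and by early control (EAC, sedentary), early exercise (EAE), late control (LAC, sedentary) and late exercise (LAE) group. Bars are the mean ± SD of 6 libraries and open diamonds are the 4 atypical libraries. Bmal1 and Npas2 leave an empty band between early (at most 6.40 and 4.17 CPM) and late libraries (at least 38.6 and 33.3 CPM), whereas SAT late exercised libraries of Clock reach down to 71.6 CPM.

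Late libraries lay wholly above early ones for 3 of the 3 genes in sedentary SAT, where 3.57% of the 14372 genes tested did so, and for 2 of 3 in exercised SAT, against 1.41%. In VAT they did so for 3 of 3 in sedentary rats, against 3.16% of the 13883 genes tested, and for 3 of 3 in exercised rats, against 4.33%. The genes were chosen on this contrast, so nothing is read from these shares. The median log2 phase difference over all tested genes lay between -0.01 and 0.03 in the 4 comparisons. That of the 3 genes was the value of Bmal1 itself, between 3.98 and 4.21, with Clock lower at 0.48 to 1.06 and Npas2 higher at 4.63 to 5.05.

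**Figure D2:**
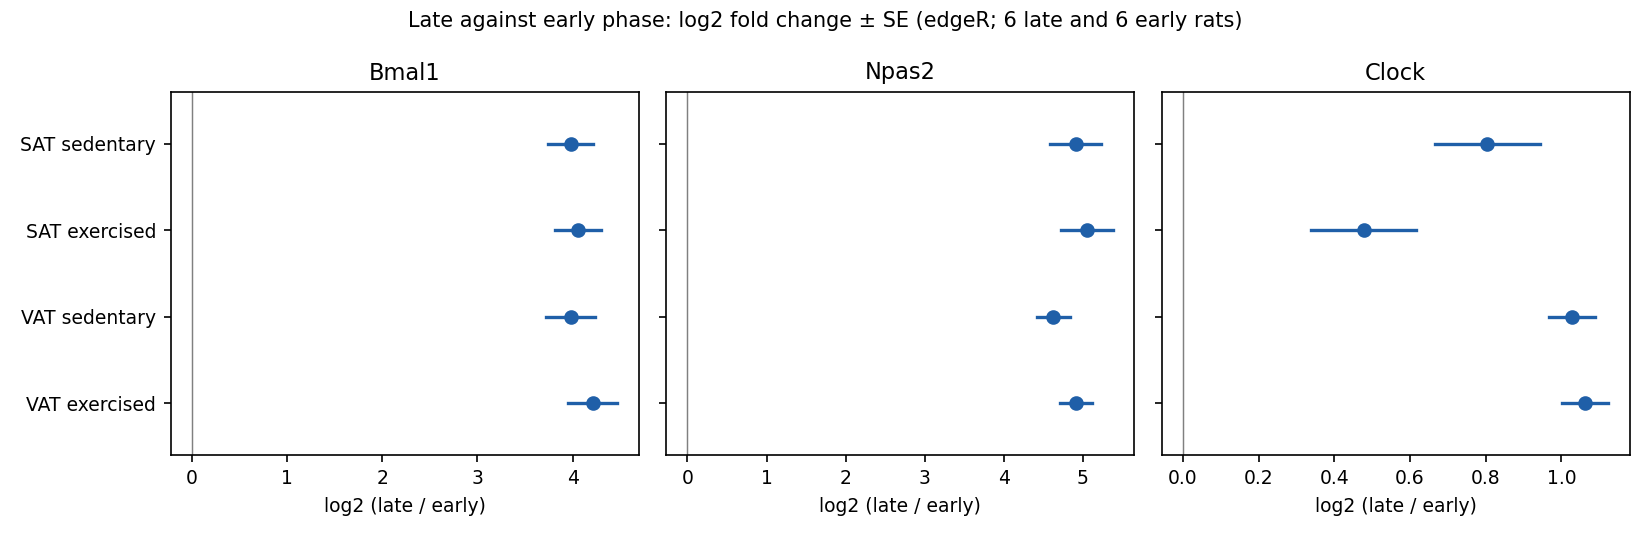
Late over early level of each gene (log2 fold change ± SE, horizontal axis, with a range of its own for Clock) in each depot and activity group, 6 late and 6 early rats each. Bmal1 lies between 3.98 and 4.21, Npas2 between 4.63 and 5.05 and Clock between 0.48 and 1.06, with its lowest value in exercised SAT.

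The order of the group means was set by phase for all 3 genes. The step from the highest early to the lowest late group mean was larger than the pooled SD of the 2 groups for each gene. Bmal1 went from 3.57 ± 1.64 CPM (SD, n = 6) in SAT of early sedentary rats to 49.2 ± 2.54 CPM in VAT of late sedentary rats. Npas2 went from 2.69 ± 0.466 CPM in VAT of early exercised rats to 55.6 ± 21.7 CPM in SAT of late exercised rats. Clock went from 77.8 ± 8.54 CPM in SAT of early sedentary rats to 95.8 ± 20.3 CPM in SAT of late exercised rats. The place of SAT of late exercised rats depended on its 2 atypical libraries for Npas2: without them its mean was 65.9 ± 18.9 CPM (n = 4), and the lowest late Npas2 group was SAT of late sedentary rats at 58.0 ± 8.17 CPM. For Clock it stayed the lowest late group without them, at 106.2 ± 15.9 CPM (n = 4).

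Among the early groups, no neighbours in the order differed by more than their pooled SD for any of the 3 genes. Among the late groups, the only Bmal1 step past the pooled SD was the top one. It went from 50.9 ± 4.15 CPM in VAT of late exercised rats to 56.3 ± 4.29 CPM in SAT of late sedentary rats. The libraries of these groups overlapped, at 44.0 to 55.6 and 51.4 to 63.0 CPM, and the step between the sorted means was not tested. Npas2 was highest in VAT of late exercised rats at 82.1 ± 17.5 CPM, above 64.4 ± 13.6 CPM in VAT of late sedentary rats. Its next neighbour without the atypical libraries was SAT of late exercised rats, and the step to it did not exceed their pooled SD. Clock in SAT of late exercised rats lay below its next neighbour, VAT of late sedentary rats at 134.6 ± 7.55 CPM. The other 2 late Clock groups, at 135.7 ± 20.2 CPM (SAT, sedentary) and 136.6 ± 9.76 CPM (VAT, exercised), did not differ from it by more than their spread.

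The rats of a group varied more than counting alone would give. For Bmal1 the coefficient of variation was 28.5% to 54.0% in the early groups, where counting error gives 13.9% to 16.7%, and 5.17% to 15.5% in the late groups, where it gives 3.29% to 3.71%. Npas2 varied by 17.3% to 49.1% early against a counting error of 15.7% to 20.6%, and by 14.1% to 39.0% late against 2.95% to 3.53%. The spread of Npas2 in VAT of early exercised rats (17.3%) was close to its counting error (15.7%). Clock varied by 5.61% in VAT of late sedentary rats to 21.2% in SAT of late exercised rats, against a counting error of 2.13% to 3.18%. Without the atypical libraries the early VAT means of Bmal1 moved from 3.05 ± 1.64 to 2.42 ± 0.671 CPM (n = 5) in sedentary and from 2.66 ± 1.37 to 2.11 ± 0.304 CPM (n = 5) in exercised rats.

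Whether exercise went with another level 24 h later was tested within each depot and phase with edgeR's quasi-likelihood test, adjusted over all genes. At the late phase in SAT, Clock was lower in exercised rats, at 95.8 ± 20.3 against 135.7 ± 20.2 CPM (SD, n = 6). The ratio was 0.704 (95% confidence interval 0.576 to 0.859), a log2 change of -0.51 ± 0.139 SE with adjusted p = 0.0286 in edgeR. All 6 exercised rats lay below the sedentary mean and 4 of 6 below the lowest sedentary rat, which was at 104.5 CPM. Bmal1 (log2 -0.18 ± 0.206, adjusted p = 0.562) and Npas2 (log2 -0.07 ± 0.264, adjusted p = 0.887) did not pass the test there.

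The Clock call depended on which libraries were kept, and the 2 atypical SAT libraries hold the lowest values of the exercised group. Without them the exercised mean was 106.2 ± 15.9 CPM (n = 4) and the log2 change -0.36 ± 0.138 with adjusted p = 0.150 in edgeR. It also missed the threshold without SAT late exercised replicate 4 (adjusted p = 0.0855) or 6 (0.0751), or without late sedentary replicate 1 (0.0616), 2 (0.0611) or 3 (0.0733), in limma voom (0.0594), with a replicate block (0.0581) and in a fit of only the compared groups (0.133), as edgeR or limma adjusted p. The direction was downward in every one of these settings. The count of 1 of 3 genes stood beside 11.5% of all 14372 genes called, and that background fell from 1654 to 310 genes without the atypical libraries.

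In VAT at the late phase none of the 3 genes passed the test. Npas2 was 82.1 ± 17.5 CPM in exercised and 64.4 ± 13.6 CPM in sedentary rats, a ratio of 1.28 (95% confidence interval 1.01 to 1.61), with edgeR's adjusted p = 0.421 and 0.0394 unadjusted. Of the 6 exercised rats, 3 lay above the highest sedentary rat and 1 below the sedentary mean. For Clock the ratio was 1.01 with an interval of 0.931 to 1.11 (adjusted p = 0.942, edgeR). Bmal1 had a log2 change of 0.05 ± 0.211 (adjusted p = 0.965, edgeR). The share of all 13883 genes called by edgeR was 0%, with 1557 genes at an unadjusted p under 0.05, against 43 called by DESeq2 and 200 by limma voom.

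At the early phase exercised and sedentary rats overlapped for all 3 genes in each depot. In SAT the log2 changes were -0.26 ± 0.230 for Bmal1, -0.21 ± 0.320 for Npas2 and -0.18 ± 0.139 for Clock (adjusted p = 1.00 for each, edgeR). In VAT they were -0.18 ± 0.277, 0.07 ± 0.227 and -0.01 ± 0.0610 in the same order (adjusted p = 1.00 for each, edgeR). Bmal1 had 24 to 111 counts and Npas2 11 to 60 counts in the early libraries. The 95% confidence interval for Npas2 in SAT ran from -0.87 to 0.45 on the log2 scale. The background was 0% of 14372 genes in SAT (131 at an unadjusted p under 0.05, 3 called by DESeq2 and 0 by limma voom) and 0% of 13883 in VAT (345 unadjusted, 0 by either other tool).

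The phase difference itself was not shown to depend on exercise. In SAT the change of the log2 phase difference with exercise was 0.08 ± 0.306 for Bmal1, 0.14 ± 0.414 for Npas2 and -0.33 ± 0.197 for Clock, with edgeR adjusted p = 0.918, 0.888 and 0.391. In VAT it was 0.23 ± 0.348, 0.28 ± 0.279 and 0.04 ± 0.0858 in the same order, with edgeR adjusted p = 0.951, 0.897 and 0.970. The lower late level of Clock in exercised SAT is thus not shown to differ from its early change. In either depot 0% of all genes were called by edgeR, with 2411 at an unadjusted p under 0.05 in SAT (184 called by DESeq2, 1 by limma voom) and 975 in VAT (2 by DESeq2, 0 by limma voom).

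**Figure D3:**
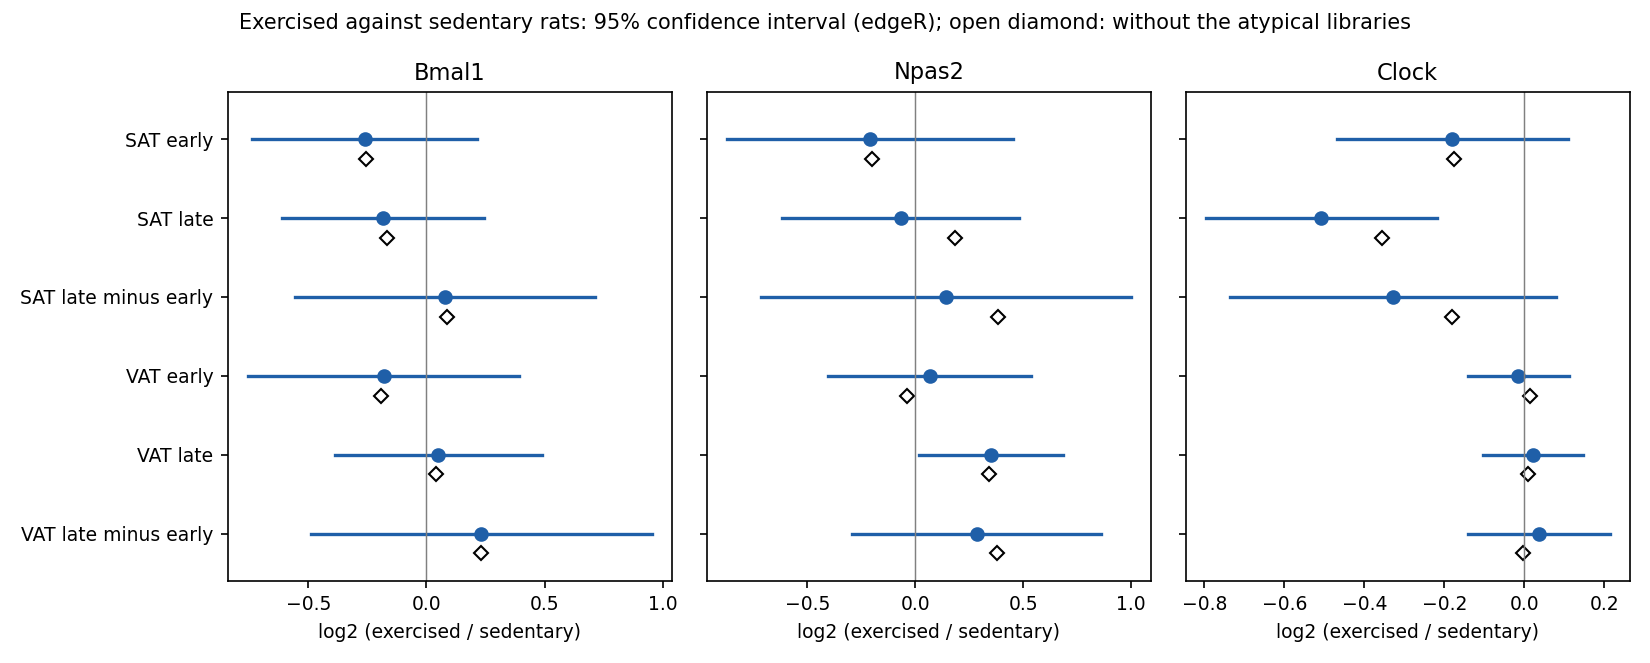
Exercised over sedentary level of each gene (log2, horizontal axis, with a range of its own per gene) by depot and phase, and the late minus the early value. Points and lines are the edgeR estimate with its 95% confidence interval over 6 and 6 rats, and open diamonds leave out the 4 atypical libraries. For Clock in late SAT the point is at -0.51 and the diamond at -0.36, and for Npas2 there the diamond (0.18) lies on the other side of 0 from the point (-0.07).

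The late change of Clock with exercise was also set against that in VAT, a comparison added after the data were seen. The VAT change exceeded the SAT change by 0.53 ± 0.153 on the log2 scale, with adjusted p = 0.157 in edgeR (0.00131 unadjusted), so a difference between depots was not shown. It passed without SAT late exercised replicate 2 (0.63, adjusted p = 0.0271) or 5 (0.56, adjusted p = 0.0480) and fell to 0.37 (adjusted p = 0.593) without the atypical libraries, all in edgeR. For Bmal1 the difference was 0.23 ± 0.304 and for Npas2 0.41 ± 0.309 (adjusted p = 0.742 and 0.521, edgeR). In this comparison 0% of 14693 genes were called by edgeR, 2464 had an unadjusted p under 0.05, 172 were called by DESeq2 and 0 by limma voom.

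The depots were compared within each phase over the fit of all 48 libraries, with sedentary and exercised rats averaged. This fit took the SAT and VAT libraries of a rat as independent. A block for the rat, matched by replicate number, changed no depot call of the 3 genes. Npas2 was higher in VAT than in SAT at the early phase, by 1.47-fold (95% confidence interval 1.11 to 1.95, adjusted p = 0.0236, edgeR), and in 9 of 12 rats matched by replicate number. It was also higher at the late phase, by 1.28-fold (interval 1.03 to 1.59, adjusted p = 0.0450, edgeR), and in 10 of 12 rats. A split by activity, added after the data were seen, gave a late log2 difference of 0.56 in exercised rats (adjusted p = 0.0304, edgeR). In sedentary rats it was 0.15 (adjusted p = 0.632, edgeR). The early difference passed in neither part, at 0.69 in exercised (adjusted p = 0.0772, edgeR) and 0.43 in sedentary rats (adjusted p = 0.292, edgeR). The early call was lost in limma voom (log2 0.69, adjusted p = 0.0577) and, in edgeR, without SAT early sedentary replicate 1 (0.0514) or VAT early sedentary replicate 3 (0.0627). The late call was lost without the atypical libraries (log2 0.23, adjusted p = 0.167, edgeR) and in 13 of the 24 fits that left out 1 library, with adjusted p = 0.0503 to 0.0940 in edgeR. These 13 were SAT late sedentary replicates 1, 2, 3 and 4, SAT late exercised 1, 4 and 6, VAT late sedentary 5 and 6, and VAT late exercised 2, 3, 4 and 5.

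Clock was 1.19-fold higher in VAT at the late phase (interval 1.07 to 1.32, adjusted p = 0.00522, edgeR), in 8 of 12 rats. All 6 exercised pairs had the higher level in VAT, against 2 of the 6 sedentary pairs. In exercised rats alone the log2 difference was 0.51 (adjusted p = 0.000190, edgeR) and in sedentary rats alone -0.01 (adjusted p = 0.945, edgeR), a split added after the data were seen. The late difference averaged over activity was 0.18 on the log2 scale without the atypical libraries (adjusted p = 0.0385, edgeR). Exercised SAT libraries that enter here are those of the late exercise comparison, so the 2 results share their low Clock values.

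At the early phase Clock was higher in VAT than in SAT in 2 of 12 rats matched by replicate number. Its log2 difference was -0.16 ± 0.0767 and missed the threshold (adjusted p = 0.0874, edgeR). It passed in limma voom (-0.21, adjusted p = 0.000667) and, in edgeR, without SAT early exercised replicate 1 (-0.21, adjusted p = 0.0152), whose 45.4 CPM is the lowest Clock level of all libraries. Bmal1 did not differ between depots by more than its error, at -0.18 ± 0.181 early and -0.08 ± 0.152 late (adjusted p = 0.466 and 0.674, edgeR). Its level was higher in VAT in 2 of 12 early rats. At the late phase this was so in 3 of 12 rats, with 0 of 6 sedentary and 3 of 6 exercised. Without the atypical libraries, 2 of which carry the highest early VAT values of Bmal1, the early difference was -0.53 ± 0.147 with adjusted p = 0.00297 in edgeR. At the early phase 1 of 3 genes was called beside 40.2% of all 14693 genes, and at the late phase 2 of 3 beside 57.2%.

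The phase difference of Clock in exercised rats was larger in VAT than in SAT, by 0.59 ± 0.153 on the log2 scale (adjusted p = 0.0147, edgeR). It missed the threshold without the atypical libraries (0.42, adjusted p = 0.168, edgeR) and without VAT early exercised replicate 3 alone (0.58, adjusted p = 0.0562, edgeR). The SAT late exercised libraries enter here too, so their low Clock values are shared with the late exercise and late depot results. The phase differences of exercised rats were known beforehand, so the p value is given as a description. Bmal1 (0.17 ± 0.337) and Npas2 (-0.13 ± 0.354) showed no depot difference past their error, with edgeR adjusted p = 0.798 and 0.865. The background was 7.43% of 14693 genes, or 1092, which fell to 82 without the atypical libraries.

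**Figure D4:**
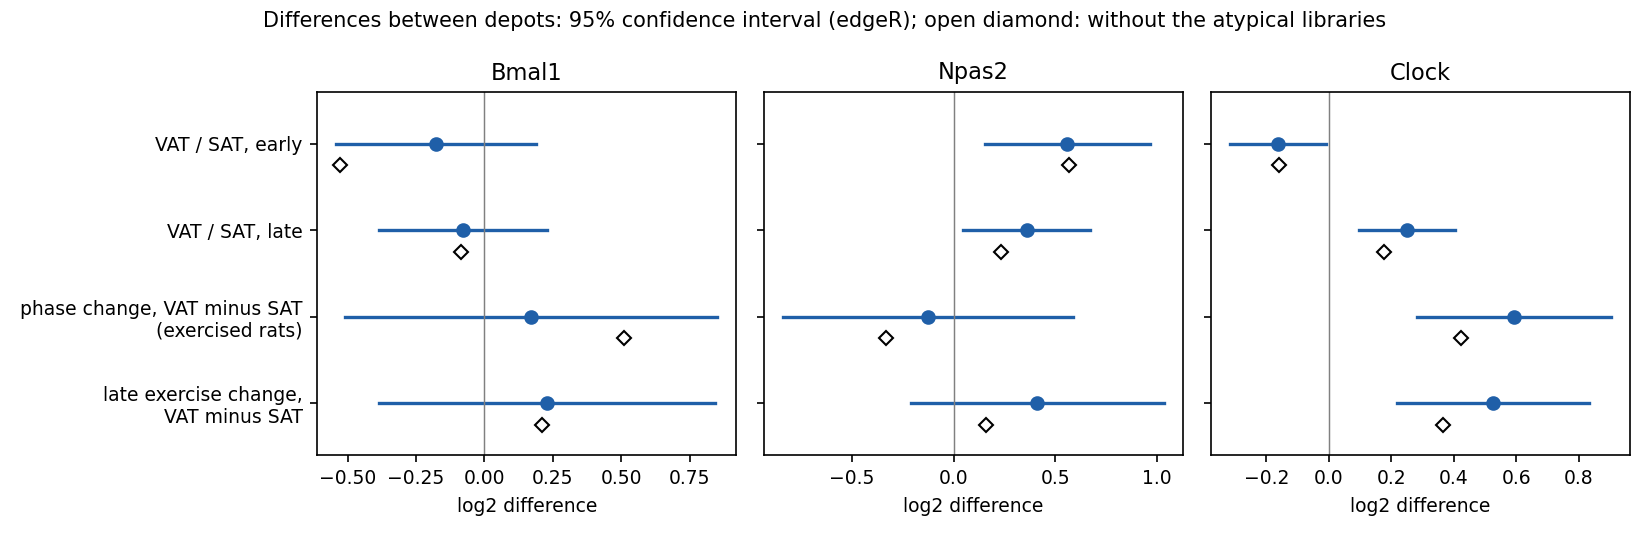
Differences between the depots for each gene (log2, horizontal axis, with a range of its own per gene). From top to bottom are VAT over SAT at the early and late phase, VAT minus SAT of the late minus early difference in exercised rats, and VAT minus SAT of the late exercise change. Points and lines are the edgeR estimate with its 95% confidence interval over all 48 libraries, and open diamonds leave out the 4 atypical ones. Npas2 lies above 0 at both phases (0.56 and 0.36), and the early Bmal1 value moves from -0.18 to -0.53 without the atypical libraries.

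Within a depot and phase, with group means removed, the 3 genes were not shown to vary together from rat to rat. Over 12 libraries each, the 12 relations among them had Pearson r between -0.53 and 0.53. The 6 relations of a gene between SAT and VAT of the same rat had r between -0.64 (Npas2, early) and 0.56 (Npas2, late). No relation passed the permutation test after adjustment over all 18, where the smallest adjusted p was 0.411 for Pearson r and 0.203 for Spearman rho. In another setting the 2 libraries farthest from the median were left out, judged on the first gene named or, between depots, on SAT. This turned the sign of 6 of the 18 relations. Npas2 and Clock in early VAT then had an r of -0.79 (adjusted p = 0.0137, permutation), from -0.53. Without the atypical libraries that r was -0.50 and did not pass.

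Across all 48 libraries, log2 CPM was used to find the genes most like each of the 3, as a description that mostly follows phase. Of the 14693 genes tested, the gene most like Bmal1 by Pearson r was Npas2, and the gene most like Npas2 was Bmal1 (Pearson r = 0.957, Spearman rho = 0.716). By rank other genes were closer, such as ENSRNOG00000021611 to Bmal1 (rho = 0.821) and ENSRNOG00000010116 to Npas2 (rho = 0.886). Clock had r of 0.862 with Bmal1 and 0.870 with Npas2. By rank its relations were the closer ones, with rho of 0.793 to Bmal1 and 0.729 to Npas2, against 0.716 between Bmal1 and Npas2. Outside the 3 genes, ENSRNOG00000021611 was most like Bmal1 (r = 0.955) and ENSRNOG00000010116 most like Npas2 (r = 0.952), while the nearest to Clock reached r = 0.920.

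Opposite genes followed them as closely. ENSRNOG00000021027 had the lowest r with Bmal1 (-0.980) and also with Clock (-0.907), and ENSRNOG00000018413 had the lowest with Npas2 (-0.983). In SAT of sedentary rats ENSRNOG00000021027 stood at 179.9 ± 43.1 CPM early and 10.6 ± 1.26 CPM late (SD, n = 6), and ENSRNOG00000018413 at 153.5 ± 19.3 and 14.9 ± 3.23 CPM. The genes like Bmal1 and Npas2 showed smaller steps, with ENSRNOG00000021611 at 21.4 ± 3.46 CPM early and 55.4 ± 7.37 late and ENSRNOG00000010116 at 18.4 ± 1.82 and 33.2 ± 2.47 CPM.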

How the data were processed

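The sequenced RNA was polyA-selected and the reads were single-end, of 50 nt (from the labels' protocols). Each of the 48 libraries has, for 23481 Ensembl IDs, an estimated count deposited by the authors in whole numbers. Per the submitters' processing notes, Salmon 1.4.0 and build rn6 were used. The annotation release and the summing of transcripts are not given in the sources used, so transcripts of a gene are not told apart.

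Counts were fitted with edgeR 4.0.16 in R 4.3.3 (TMM, filterByExpr, quasi-likelihood; 4 groups of a depot or all 8 groups), with Benjamini-Hochberg adjustment at 0.05 over all genes tested: 14372 in SAT, 13883 in VAT and 14693 over both. Alternatives were DESeq2 1.42.0 (test, size factors), limma 3.58.1 voom with quality weights, no filter, a replicate block, a fit of the compared groups alone, leaving out the atypical libraries, and each library left out; the split by activity, the depot comparison of the late exercise change, and the gaps and group order without the atypical libraries were added. Log2 CPM used a prior count of 2, correlations 100000 permutations within groups. The fits were also run on simulated counts, which held no atypical libraries, and the outcome is not given here.

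The 3 genes, lists and tests were chosen with earlier results of these data known. Genes most alike were named by the highest and lowest Pearson r, at most 2 IDs each way, since the IDs are not paired with symbols; lists of other clock genes and cell type markers were therefore not analysed here.

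Replicates are separate rats, per the labels. Replicate numbers were read as naming the rat, since the labels give 6 rats per group with both depots: 17 of 24 SAT libraries correlated best with the same-numbered VAT library of their group, with r of same-numbered libraries between -0.086 and 0.194 (deviations from group means, across genes). Within a depot the numbers of different groups name different rats.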

Additional observations from a re-analysis of the deposited data

Results flagged for a closer look

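In 24 checks of a gene within a group of 6 libraries, 4 libraries lay far from the rest, where chance gives about 1 in 20 groups. Bmal1 was highest in VAT early sedentary replicate 5 at 6.17 CPM and in VAT early exercised replicate 3 at 5.41 CPM, which are both atypical libraries. Npas2 was highest in SAT early exercised replicate 2 at 2.94 CPM, from 51 counts. Clock was lowest in SAT early exercised replicate 1 at 45.4 CPM, from 594 counts. The phase difference of Clock in exercised rats was larger in VAT than in SAT by 0.59 on the log2 scale. The interaction test in edgeR gave adjusted p = 0.0147, where 7.43% of 14693 genes were called. The phase differences of exercised rats were known beforehand, so this p value is a description. The difference missed the threshold without the atypical libraries (0.42, adjusted p = 0.168, edgeR) and without VAT early exercised replicate 3 alone (0.58, adjusted p = 0.0562, edgeR). The value of 0.59 rests on the same SAT late exercised libraries as the late exercise and late depot results of Clock. The causes were not tested.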

How the results depend on the processing

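The phase differences kept their direction in all 84 other settings and all 144 fits without 1 library. Of the exercise values, 128 of 138 and 337 of 360 kept direction and call, and of the depot values 55 of 66 and 198 of 216. Most exercise values were not called in the main fit, so for them keeping the call means staying uncalled. The only exercise call, late SAT Clock, held in 3 of 7 other settings and in 7 of 12 fits without 1 library. The late depot call of Npas2 held in 5 of 8 and 11 of 24. The causes of the changes below were not tested, and values are log2 differences unless called r.

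Without the atypical libraries, the late SAT exercise change was -0.36 for Clock and 0.18 for Npas2, the early VAT exercise change 0.014 for Clock and -0.040 for Npas2, and the VAT change of the phase difference with exercise -0.0031 for Clock. The VAT against SAT difference was then -0.53 for early Bmal1 and 0.23 for late Npas2, and that of the Clock phase difference in exercised rats 0.42. In limma voom it was -0.21 for early Clock and 0.69 for early Npas2, and the exercise change -0.43 for late SAT Clock, 0.11 for late SAT Npas2 and 0.024 for early VAT Clock. Late SAT Clock was -0.50 in the fit of only the compared groups.

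With the replicate block late SAT Clock was -0.52 (adjusted p = 0.0581, edgeR), and blocking changed no other call of the 3 genes. In the fits within a depot the block was the replicate number. There, same-numbered libraries of different groups had r between -0.37 and 0.54 and name different rats, so this is no pairing. In the fit of all 48 libraries the block was the rat, which pairs SAT with VAT by replicate number. With no filter the late depot difference of Npas2 was 0.366 (adjusted p = 0.0526, edgeR). In exercised rats alone the depot difference was 0.69 for early Npas2 and 0.035 for late Bmal1. In sedentary rats alone it was 0.43 for early and 0.15 for late Npas2, and -0.013 for late Clock.

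Without 1 library each, the depot difference ran from -0.21 to -0.14 for early Clock, 0.47 to 0.68 for early Npas2 and 0.29 to 0.45 for late Npas2, and the depot difference of the phase change from 0.51 to 0.69 for Clock and -0.37 to 0.059 for Npas2. The early exercise change ran from -0.46 to 0.014 for SAT Npas2, and in VAT from -0.56 to 0.18 for Bmal1, -0.041 to 0.023 for Clock and -0.011 to 0.24 for Npas2. The late one ran in SAT from -0.61 to -0.43 for Clock and -0.24 to 0.056 for Npas2, in VAT from -0.012 to 0.056 for Clock, and between the depots from 0.45 to 0.63 for Clock. The change of the phase difference with exercise ran in SAT from -0.17 to 0.24 for Bmal1 and -0.082 to 0.39 for Npas2, and in VAT from -0.14 to 0.60 for Bmal1 and -0.0020 to 0.071 for Clock.

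Without the 2 farthest libraries r turned to -0.53 (Bmal1 and Clock, early SAT), -0.18 (Bmal1 and Clock, late SAT), -0.25 (Bmal1 and Npas2, early SAT), -0.41 (Bmal1 between depots, early), 0.36 (Bmal1 between depots, late) and 0.21 (Clock between depots, late), the last being 0.49 without the atypical libraries.

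Genes called for late SAT exercise numbered 1654 in edgeR, 2718 in DESeq2, 298 in limma voom, 385 with the block and 0 in the fit of only the compared groups; for the depot difference of the phase change in exercised rats they numbered 1092, with 56 in limma voom and 173 with the block. Without 1 library these counts ran from 257 to 3067 and from 120 to 2369. The 0 genes called for the late exercise change between depots became 672 and 347 without SAT late exercised replicates 2 and 5, and the 0 for late VAT exercise became 36 without VAT late exercised replicate 6. Counting error was 13.9% to 20.6% of the early Bmal1 and Npas2 levels and at most 3.71% of their late levels.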
